A study of Mus musculus with 6 samples.

Results

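The tumour necrosis factor (TNF) superfamily, its ligands and its receptors, was followed across 6 cultures of mouse CD4+ T cells. Members were taken by gene name: every gene whose name begins with Tnfsf or Tnfrsf and a number, together with Tnf, Lta, Ltb, Ltbr, Fas, Fasl, Cd40, Cd40lg, Cd27, Cd70 and Ngfr. This gave 43 of the 54532 genes in the count table, namely 17 ligands, 25 receptors and 1 antisense gene, Tnfsf13os.

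The CD4+ T cells came from spleens of male C57BL/6 mice aged 6 to 8 weeks and were purified by magnetic negative selection. Both groups received plate-bound anti-CD3, anti-CD28, IL-2, IL-12 and anti-IL-4 for 3 days, which are Th1-polarising conditions. The Th1 group (n = 3) had the vehicle, 0.1% DMSO, and the Th1+ALX-5407 group (n = 3) had 500 nM ALX-5407, a compound that blocks GlyT1, which carries glycine into cells. The labels give an exposure of 72 h and the methods 24 h, and no source states that the 3 cultures of a group came from separate mice, so p-values measure the spread between these cultures. The question addressed here was how the inhibitor changed the transcripts of each ligand and of its receptor.

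TNF superfamily ligands are mostly trimers held in the cell membrane, and some are released by proteases. Their receptors either carry a death domain, which recruits FADD or TRADD, or bind TRAF adaptors that lead to NF-κB and MAP kinase activation, and a few lack a signalling tail and act as decoys. On activated T cells several of these receptors (OX40, 4-1BB, GITR, CD27) act as costimulators, whereas the Fas ligand and Fas pair is best known for killing activated lymphocytes.

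Libraries held 30801753 to 36727788 counts. The 7 CD4+ T cell markers added up to 2565 to 2696 CPM (reads scaled to library size) in the Th1 group and 2599 to 2643 CPM with ALX-5407, and the 5 Th1 markers to 1213 to 1394 CPM and 984 to 1022 CPM. Single markers differed in direction: Ifng (log2 fold change −0.79) and Stat4 (−1.16) fell while Tbx21 (0.34) rose, and Cd4 (−0.46), Cd3d (−0.39) and Cd3g (−0.35) fell while Cd28 (0.52) and Cd5 (0.24) rose. Other lineages were sparse. Myeloid and dendritic cell markers summed to 4.48 to 5.59 CPM against 3.65 to 4.1 CPM, with Siglech at 0 in every library, and CD8 markers to 9.25 to 9.59 CPM against 6.71 to 8.87 CPM. Erythroid and platelet markers summed to 0.522 to 1.21 CPM against 1.37 to 2.98 CPM. In bulk RNA, fewer cells of a type and less RNA per cell cannot be told apart.

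With ALX-5407 the ligands as a group were more often lower than higher, whereas the receptors fell and rose about as often as all genes tested. Of the 35 members with enough reads to be tested, 13 fell, 8 rose and 14 were not called at an adjusted p of 0.05 (edgeR quasi-likelihood test, Benjamini-Hochberg adjustment over 15938 genes). That is 37.1% lower and 22.9% higher, where 23.2% of all genes tested fell and 24.5% rose. Of the 13 ligands tested, 8 fell (61.5%), 2 rose (15.4%) and 3 were not called, and their median log2 fold change was −0.58. Of the 22 receptors tested, 5 fell (22.7%), 6 rose (27.3%) and 11 were not called, with a median of 0.05, beside 0.01 over all genes tested. The receptor shares are thus close to those of all genes.

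Adding the fold criterion of the study's methods, an absolute log2 fold change over 1, left 6 members, all lower: the ligands Tnfsf4, Cd70 and Fasl and the receptors Tnfrsf11a, Tnfrsf13c and Tnfrsf25. They are 17.1% of the members tested, where 6.68% of all genes tested were lower by this criterion. No tested member was called higher by more than 1 on the log2 scale (0 of 35 in edgeR, 0 also at an unadjusted p under 0.05, and 0 called in DESeq2), where 3.36% of all genes tested were. At so low a share, 0 of 35 says little. Tnfrsf21 (0.97) passed when Th1 replicate 2 or Th1+ALX-5407 replicate 1 was left out. A further limit is that 5 members, Cd70, Tnfsf15, Ltbr, Tnfrsf11a and Tnfrsf11b, reached the filter level of 0.296 CPM in fewer than 3 libraries of at least 1 group. Their values rest on few reads. Of the 6 members past both criteria, Cd70 and Tnfrsf11a reached that level in every Th1 library but not in every treated one. They thus entered the test through the group where they are high. With genes of a mean under 50 counts filtered out, 4 members passed both criteria.

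**Figure D1:**
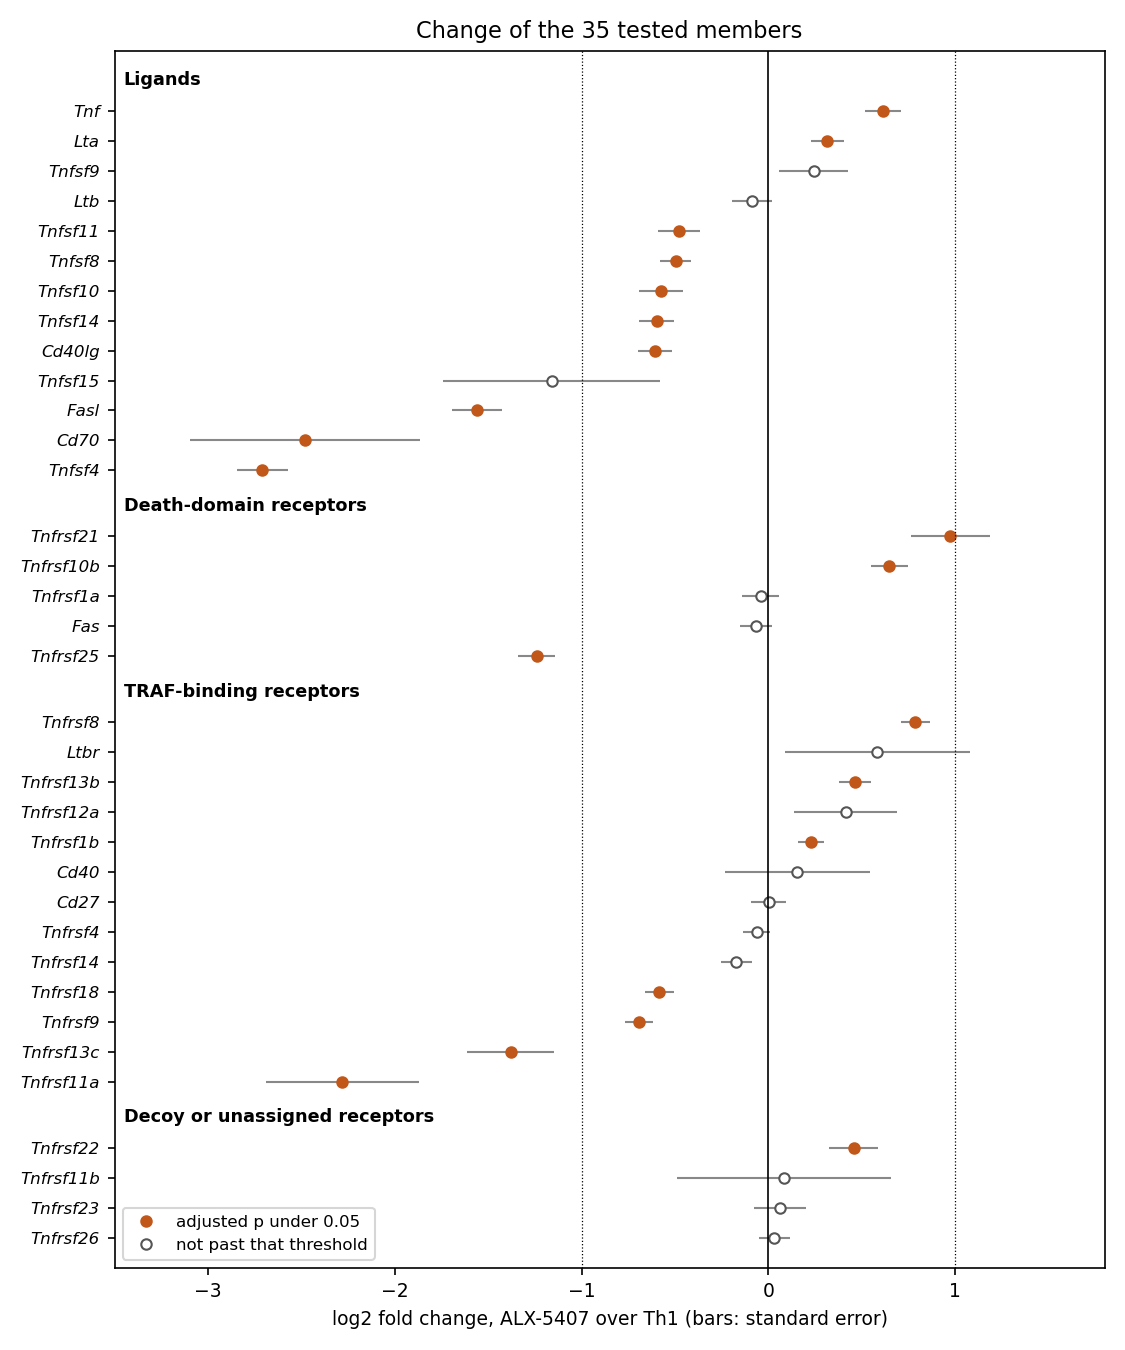
Log2 fold change, ALX-5407 over Th1, of the 35 tested members (x axis, with bars for the standard error derived from the fit), with ligands and receptors separated. Most ligands lie left of 0, with Tnfsf4 at −2.71 and Tnf at 0.61 as their ends, and the receptors run from −2.28 for Tnfrsf11a to 0.97 for Tnfrsf21.

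Among the ligands, Tnfsf4, which encodes OX40 ligand, had the largest fall. It had 1157, 1165 and 1171 reads in the Th1 cultures and 150, 215 and 243 with ALX-5407. All 3 Th1 cultures lay far above all 3 treated ones. Its level went from 36.9 ± 1.28 CPM (SD, n = 3) to 5.65 ± 1.35 CPM (SD, n = 3), a log2 fold change of −2.71 (SE 0.137, adjusted p = 5.01e-10), or 6.53-fold lower. It lies on chromosome 1, GRCm38 chr1:161395409-161418410, on the plus strand.

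Fasl, the Fas ligand that triggers apoptosis in Fas-bearing cells, fell 2.94-fold. Its reads were 549, 537 and 689 in the Th1 cultures and 218, 256 and 214 with ALX-5407. The groups did not overlap, and the treated cultures were close together. The level was 18.8 ± 3.12 CPM (SD, n = 3) and 6.38 ± 0.419 CPM (SD, n = 3), with a log2 fold change of −1.56 (SE 0.134, adjusted p = 1.42e-07). NK cell markers, cells that also carry Fas ligand, summed to 3.8 to 4.3 CPM in the Th1 group and 1.33 to 1.65 CPM with ALX-5407, nearly all of it from Klre1 (log2 fold change −1.46), while Ncr1 reached at most 4 reads and Klrb1c 9. Their part in the Fasl result was not tested.

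Cd70, the ligand of CD27, was near the limit of detection. It had 34, 45 and 30 reads in the Th1 cultures and 14, 8 and 0 with ALX-5407. Its log2 fold change was −2.48 (SE 0.614, adjusted p = 0.0033), and it was −1.90 without Th1+ALX-5407 replicate 3, the library at 0, and −3.34 without Th1+ALX-5407 replicate 1.

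Another 5 ligands fell by less. Cd40lg, the CD40 ligand through which helper T cells activate B cells, had 2533, 2477 and 2506 reads against 1668, 1827 and 2110, a log2 fold change of −0.61 (SE 0.0886, adjusted p = 3.27e-05). Tnfsf14, which encodes LIGHT, had 864, 769 and 735 reads against 582, 638 and 558, and its log2 fold change was −0.60 (adjusted p = 7.43e-05). In both genes every Th1 culture was above every treated one on the CPM scale. Tnfsf10, the death ligand TRAIL, had 777, 901 and 765 reads against 538, 609 and 716 (log2 fold change −0.58, adjusted p = 0.000724). Tnfsf8, the CD30 ligand, had 2957, 3094 and 2981 reads against 2243, 2353 and 2683 (−0.50, adjusted p = 0.000136). The ranges again did not overlap, though Th1+ALX-5407 replicate 3 lay nearest to the Th1 cultures for Cd40lg, Tnfsf10 and Tnfsf8. Tnfsf11, which encodes RANKL, the osteoclast differentiation factor that activated T cells also make, had 532, 512 and 573 reads against 397, 474 and 451, and its log2 fold change was −0.48 (adjusted p = 0.00201).

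The ligands that rose were Tnf and Lta, inflammatory cytokines that Th1 cells make. Tnf had 1028, 1186 and 983 reads in the Th1 cultures and 1634, 1918 and 2001 with ALX-5407. Every treated culture was above every Th1 culture, at 51.6 ± 5.40 CPM (SD, n = 3) against 33.8 ± 3.51 CPM (SD, n = 3), a log2 fold change of 0.61 (SE 0.0963, adjusted p = 7.04e-05). Lta, lymphotoxin alpha, had 16054, 17547 and 12828 reads against 21011, 23085 and 21579, and its log2 fold change was 0.32 (SE 0.09, adjusted p = 0.00838). The Th1 cultures were spread more widely for Lta, 490 ± 71.5 CPM (SD, n = 3), than the treated ones, 610 ± 12.9 CPM (SD, n = 3). Ltb, which joins lymphotoxin alpha in a membrane-bound trimer, had 9913, 9191 and 7336 reads against 10124, 10509 and 7638 and was not called (log2 fold change −0.09, SE 0.105, adjusted p = 0.521).

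Tnfsf9 and Tnfsf15 were not called. Tnfsf9, the 4-1BB ligand, had 105, 114 and 102 reads against 140, 170 and 123 (log2 fold change 0.24, SE 0.184, adjusted p = 0.301). Of its exon bases 14.9% are shared with another gene, Gm11110, which had up to 480 reads and fell (−0.55, adjusted p = 0.00057), and since the strand setting of the counting is not given, reads of these genes may not be separable. Tnfsf15, which encodes TL1A, had 10, 11 and 13 reads against 4, 4 and 9, a log2 fold change of −1.16 with a wide error (SE 0.582, adjusted p = 0.113).

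The promoters of Fasl, the ligand past both criteria with a sequence on hand, and of Tnf, the ligand with the largest rise, are shown because these ligands moved in opposite directions. Each is the RefSeq window on GRCm38.p6 from 250 bases before to 50 after the annotated start, 5′ to 3′ on the gene's own strand: chr1:161788446-161788745 (minus strand) for Fasl and chr17:35201958-35202257 (minus strand) for Tnf. Capitals mark matches, on either strand, to GGGNNNTTC (an NF-κB-type motif), TGANTCA (AP-1), GGAAAA (NFAT-type), TATAAA (the TATA box) and AGGTGTGA (T-box).
Fasl: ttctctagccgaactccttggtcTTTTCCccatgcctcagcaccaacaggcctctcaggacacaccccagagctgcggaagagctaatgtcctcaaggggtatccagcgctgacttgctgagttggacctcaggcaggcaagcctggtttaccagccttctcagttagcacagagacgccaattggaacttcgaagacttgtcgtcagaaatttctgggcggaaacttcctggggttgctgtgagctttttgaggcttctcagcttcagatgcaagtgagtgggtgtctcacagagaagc
Tnf: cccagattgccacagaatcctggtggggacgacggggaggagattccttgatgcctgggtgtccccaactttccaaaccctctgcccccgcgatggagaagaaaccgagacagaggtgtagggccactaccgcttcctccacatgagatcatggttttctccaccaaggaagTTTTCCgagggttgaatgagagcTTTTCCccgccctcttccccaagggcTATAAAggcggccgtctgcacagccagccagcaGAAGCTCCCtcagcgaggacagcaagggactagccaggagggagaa
With the annotated start counted as 0, the Fasl window held GGAAAA on the reverse strand at −227. The Tnf window held TATAAA at −29, GGAAAA on the reverse strand at −78 and −55, and GGGNNNTTC on the reverse strand at 4. A match describes letters and is not a binding site. Windows were on hand for 32 members, and of the 32851 windows of all genes 14.0% held GGGNNNTTC, 7.81% TGANTCA, 23.4% GGAAAA, 13.6% TATAAA and 1.28% AGGTGTGA. Of the 10 members that fell and had a window, 5 held GGAAAA, 2 GGGNNNTTC, 2 TGANTCA, 1 TATAAA and 0 AGGTGTGA. Of the 6 that rose and had a window, the numbers were 2, 2, 1, 2 and 0. These are counts of members, whereas the percentages are of windows, and the 32 members had 36 windows.

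**Figure D2:**
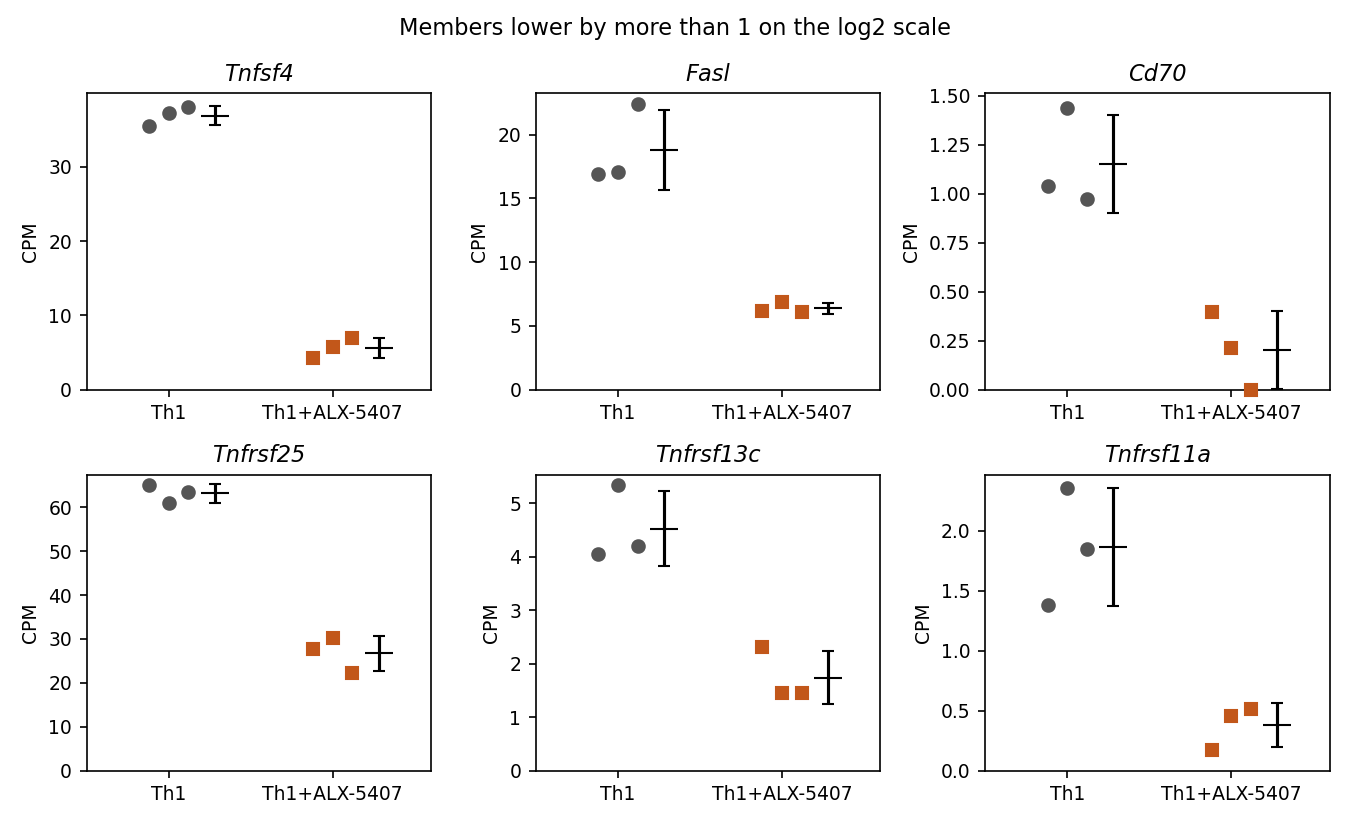
TMM-scaled CPM (y axes, from 0) in each culture for the 6 members lower by more than 1 on the log2 scale, Th1 as circles and Th1+ALX-5407 as squares, with the mean and SD of 3 cultures beside them. In all 6 panels the lowest Th1 culture is above the highest treated culture, and the Cd70 panel has a treated culture at 0. The 6 genes were chosen by their change in these same cultures, so this separation is not separate evidence.

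Among the 5 death-domain receptors tested, 1 fell, 2 rose and 2 were not called, 20.0% lower and 40.0% higher beside 23.2% and 24.5% of all genes tested. Tnfrsf25, death receptor DR3 and the receptor of TL1A, had 2119, 1909 and 1955 reads in the Th1 cultures and 982, 1123 and 780 with ALX-5407. The groups were far apart, 63.2 ± 2.12 CPM (SD, n = 3) against 26.7 ± 4.04 CPM (SD, n = 3), a log2 fold change of −1.24 (SE 0.0991, adjusted p = 6.63e-08) or 2.36-fold lower. Tnfrsf21, death receptor DR6, had the largest rise among the members that were called higher, with 57, 66 and 58 reads against 110, 148 and 147 (log2 fold change 0.97, SE 0.212, adjusted p = 0.00123). It stood just under the fold criterion and passed it, at 1.03 and 1.10, when Th1 replicate 2 or Th1+ALX-5407 replicate 1 was left out. Tnfrsf10b, the mouse TRAIL receptor, had 544, 583 and 558 reads against 911, 1013 and 1077, a 1.57-fold rise (log2 fold change 0.65, adjusted p = 5.17e-05), with all treated cultures above all Th1 cultures. Stretches of Tnfrsf10b of up to 405 bases also occur at 95% identity or more in transcripts of other genes, so its counts are less certain.

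Fas and Tnfrsf1a were not called. Fas had 1620, 1587 and 1737 reads against 1595, 1916 and 1865 (log2 fold change −0.07, SE 0.0849, adjusted p = 0.553). Tnfrsf1a, the p55 TNF receptor, had 1145, 891 and 853 reads against 1055, 1127 and 1006 (−0.04, SE 0.0984, adjusted p = 0.765). In both the cultures of the groups overlapped.

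Among the 13 TRAF-binding receptors tested, 4 fell, 3 rose and 6 were not called, and their shares of 30.8% and 23.1% stand beside 23.2% lower and 24.5% higher of all genes tested. Tnfrsf9, which encodes 4-1BB, fell from the highest level of any member, with 52132, 51513 and 46578 reads in the Th1 cultures and 35583, 38509 and 31674 with ALX-5407. The groups were 1586 ± 66.1 CPM (SD, n = 3) and 981 ± 68.4 CPM (SD, n = 3), with a log2 fold change of −0.69 (SE 0.0743, adjusted p = 1.41e-06). Tnfrsf18, which encodes GITR, had 11360, 9436 and 10047 reads against 7934, 8425 and 7017 (log2 fold change −0.59, SE 0.0778, adjusted p = 1.3e-05), and every Th1 culture was above every treated one. The antisense gene Gm16008 covers 27.2% of the Tnfrsf18 exon bases but had at most 204 reads (log2 fold change −0.05).

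Tnfrsf4, which encodes OX40, was not called, unlike its ligand and its chromosomal neighbour Tnfrsf18. Its reads were 18852, 15674 and 15967 in the Th1 cultures and 18480, 19154 and 17268 with ALX-5407. The level was 533 ± 41.3 CPM (SD, n = 3) and 510 ± 15.7 CPM (SD, n = 3), a log2 fold change of −0.06 (SE 0.074, adjusted p = 0.513). Regulatory T cells carry much OX40, GITR and 4-1BB, and the markers Foxp3 and Ikzf2 summed to 39.2 to 45.8 CPM in the Th1 group and 59.9 to 64.2 CPM with ALX-5407 (Foxp3 log2 fold change 0.73, Ikzf2 0.43). Their part in these results was not tested.

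Tnfrsf8, which encodes CD30, a receptor of activated lymphocytes, rose. It had 9695, 8465 and 7522 reads in the Th1 cultures and 16854, 17240 and 16139 with ALX-5407. No treated culture came near a Th1 culture, 467 ± 9.32 CPM (SD, n = 3) against 271 ± 26.7 CPM (SD, n = 3), and the log2 fold change was 0.79 (SE 0.0781, adjusted p = 6.05e-07). Tnfrsf1b, the p75 TNF receptor, had 3420, 3187 and 2945 reads against 4168, 4319 and 4218, a smaller rise of 1.17-fold (log2 fold change 0.23, SE 0.0695, adjusted p = 0.0127).

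Receptors better known from B cells moved in both directions. Tnfrsf13c, the BAFF receptor, had 132, 167 and 129 reads against 82, 54 and 51 (log2 fold change −1.38, SE 0.231, adjusted p = 0.000129), 2.60-fold lower. Tnfrsf13b, which encodes TACI, had 1365, 1380 and 1159 reads against 1837, 2142 and 2131 (log2 fold change 0.46, SE 0.086, adjusted p = 0.00033). Cd40 had 23, 19 and 19 reads against 28, 21 and 28 and was not called (0.16, SE 0.388, adjusted p = 0.773). The 5 B cell markers summed to 7.6 to 8.84 CPM in the Th1 group and 11.4 to 14.4 CPM with ALX-5407. Of these markers 3 of 5 were called higher, beside 24.5% of all genes tested, and none was at 0 in every library. Their part in these results was not tested.

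Tnfrsf11a, which encodes RANK, had few reads: 45, 74 and 57 in the Th1 cultures and 6, 17 and 18 with ALX-5407. The groups did not overlap and the log2 fold change was −2.28 (SE 0.407, adjusted p = 0.000224). Cd27, a costimulator of naive T cells, had 2010, 1952 and 1546 reads against 2155, 2259 and 1848, with a log2 fold change of 0.00 (SE 0.0923, adjusted p = 0.997). Tnfrsf14, which encodes HVEM, had 1174, 1182 and 1040 reads against 1100, 1239 and 1093 (−0.17, SE 0.0832, adjusted p = 0.104). It was called lower when Th1 replicate 3 was left out (−0.23) and when genes with a mean under 50 counts were filtered out (−0.2). Ltbr, the lymphotoxin beta receptor of stromal and myeloid cells, had 15, 11 and 9 reads against 11, 31 and 18 (0.58, SE 0.496, adjusted p = 0.36). Tnfrsf12a, the TWEAK receptor Fn14, had 40, 48 and 37 reads against 70, 53 and 66 (0.41, SE 0.276, adjusted p = 0.236).

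The 4 decoy or unassigned receptors held 1 rise and no fall, 25.0% and 0.0%, beside 24.5% higher and 23.2% lower of all genes tested. The share that rose is thus close to that of all genes. Tnfrsf22, a mouse TRAIL decoy receptor, had 439, 420 and 315 reads against 539, 607 and 682 (log2 fold change 0.46, SE 0.131, adjusted p = 0.00865). This call was lost (0.36) without Th1+ALX-5407 replicate 3. Tnfrsf22 has stretches of up to 766 bases at 95% identity or more in transcripts of other genes, so the split of its reads is uncertain. Its neighbours Tnfrsf23 (0.06, adjusted p = 0.758) and Tnfrsf26 (0.03, adjusted p = 0.774) were not called. Tnfrsf11b, the secreted RANKL decoy osteoprotegerin, had 4, 14 and 19 reads against 8, 19 and 18 (0.08, SE 0.574, adjusted p = 0.923).

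The promoters of Tnfrsf25, the death-domain receptor past both criteria, and of Tnfrsf8, the receptor with the smallest adjusted p among those that rose, are printed in the same way. They are chr4:152115684-152115983 (plus strand) for Tnfrsf25 and chr4:145315115-145315414 (minus strand) for Tnfrsf8, and capitals mark matches to the same 5 motifs.
Tnfrsf25: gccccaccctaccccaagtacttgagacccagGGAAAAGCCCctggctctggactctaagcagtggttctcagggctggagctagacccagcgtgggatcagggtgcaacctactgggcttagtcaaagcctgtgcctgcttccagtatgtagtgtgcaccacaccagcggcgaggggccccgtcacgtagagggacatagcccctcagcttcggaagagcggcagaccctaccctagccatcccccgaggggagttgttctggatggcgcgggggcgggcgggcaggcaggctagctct
Tnfrsf8: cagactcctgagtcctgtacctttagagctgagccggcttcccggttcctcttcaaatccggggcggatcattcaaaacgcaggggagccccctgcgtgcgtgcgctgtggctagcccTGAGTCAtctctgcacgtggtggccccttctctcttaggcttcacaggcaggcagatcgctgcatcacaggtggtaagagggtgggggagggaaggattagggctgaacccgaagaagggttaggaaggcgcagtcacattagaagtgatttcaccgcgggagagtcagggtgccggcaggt
The printed Tnfrsf25 window held GGAAAA at −218 and, overlapping it, GGGNNNTTC on the reverse strand at −217. A further Tnfrsf25 window, chr4:152116093-152116392, is not printed and held no match to the 5 motifs. The Tnfrsf8 window held a match to TGANTCA at −132.

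Levels of different genes were compared per length, as TMM-scaled FPKM. In the Th1 group Lta led the ligands at 354 ± 51.7 FPKM (SD, n = 3), followed by Ltb at 184, Cd40lg at 63.5 and Tnfsf8 at 25.1. Tnf at 20.6 and Tnfsf4 at 20.0 overlapped between cultures, and then came Tnfsf14 at 13.5, Fasl at 9.7, Tnfsf11 at 7.65, Tnfsf10 at 4.9, Tnfsf9 at 2.63, Cd70 at 1.37 and Tnfsf15 at 0.108. With ALX-5407 Tnf stood at 31.5 ± 3.30 FPKM (SD, n = 3) and Tnfsf4 at 3.07 ± 0.73 FPKM (SD, n = 3), with no overlap.

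Among the receptors Tnfrsf9 led at 583 ± 24.3 FPKM (SD, n = 3), followed by Tnfrsf4 at 390, Tnfrsf18 at 214 and Tnfrsf8 at 78.3, each separate from the gene above it. Fas, Tnfrsf25, Tnfrsf1b, Cd27 and Tnfrsf14 lay between 24.9 and 29.0 and overlapped with their neighbours. Fas was scaled by the deposited length of 1801 bases, where its annotated exons cover 2062. With the longer length its FPKM would be lower in both groups. Tnfrsf13b, Tnfrsf26 and Tnfrsf1a lay between 11.7 and 14.5, Tnfrsf10b, Tnfrsf22, Tnfrsf23 and Tnfrsf13c between 2.21 and 3.27, and the other 6 below 1. With ALX-5407 Tnfrsf9, at 360 ± 25.1 FPKM (SD, n = 3), and Tnfrsf4, at 373 ± 11.5 FPKM (SD, n = 3), were within 1 SD of each other, and Tnfrsf8, at 135, approached Tnfrsf18, at 142.

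Summed over the members, ligand transcripts came to 721, 770 and 631 FPKM in the Th1 cultures and 728, 749 and 720 with ALX-5407, and these ranges overlapped. Receptor transcripts came to 1515, 1432 and 1398 FPKM and to 1211, 1217 and 1134, with no overlap. The receptor sum divided by the ligand sum was 2.1, 1.86 and 2.22 in the Th1 cultures and 1.66, 1.62 and 1.58 with ALX-5407. Both sums rest on a few genes: Tnfrsf9 alone was 38.8% to 42.2% of the receptor sum in the Th1 cultures and 29.3% to 31.2% with ALX-5407, and Lta was 47.8% to 52.6% and 59.1% to 61.8% of the ligand sum. The ligands that fell stood at 63.5 FPKM or less in the Th1 group, and the most abundant ligand, Lta, rose.

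**Figure D3:**
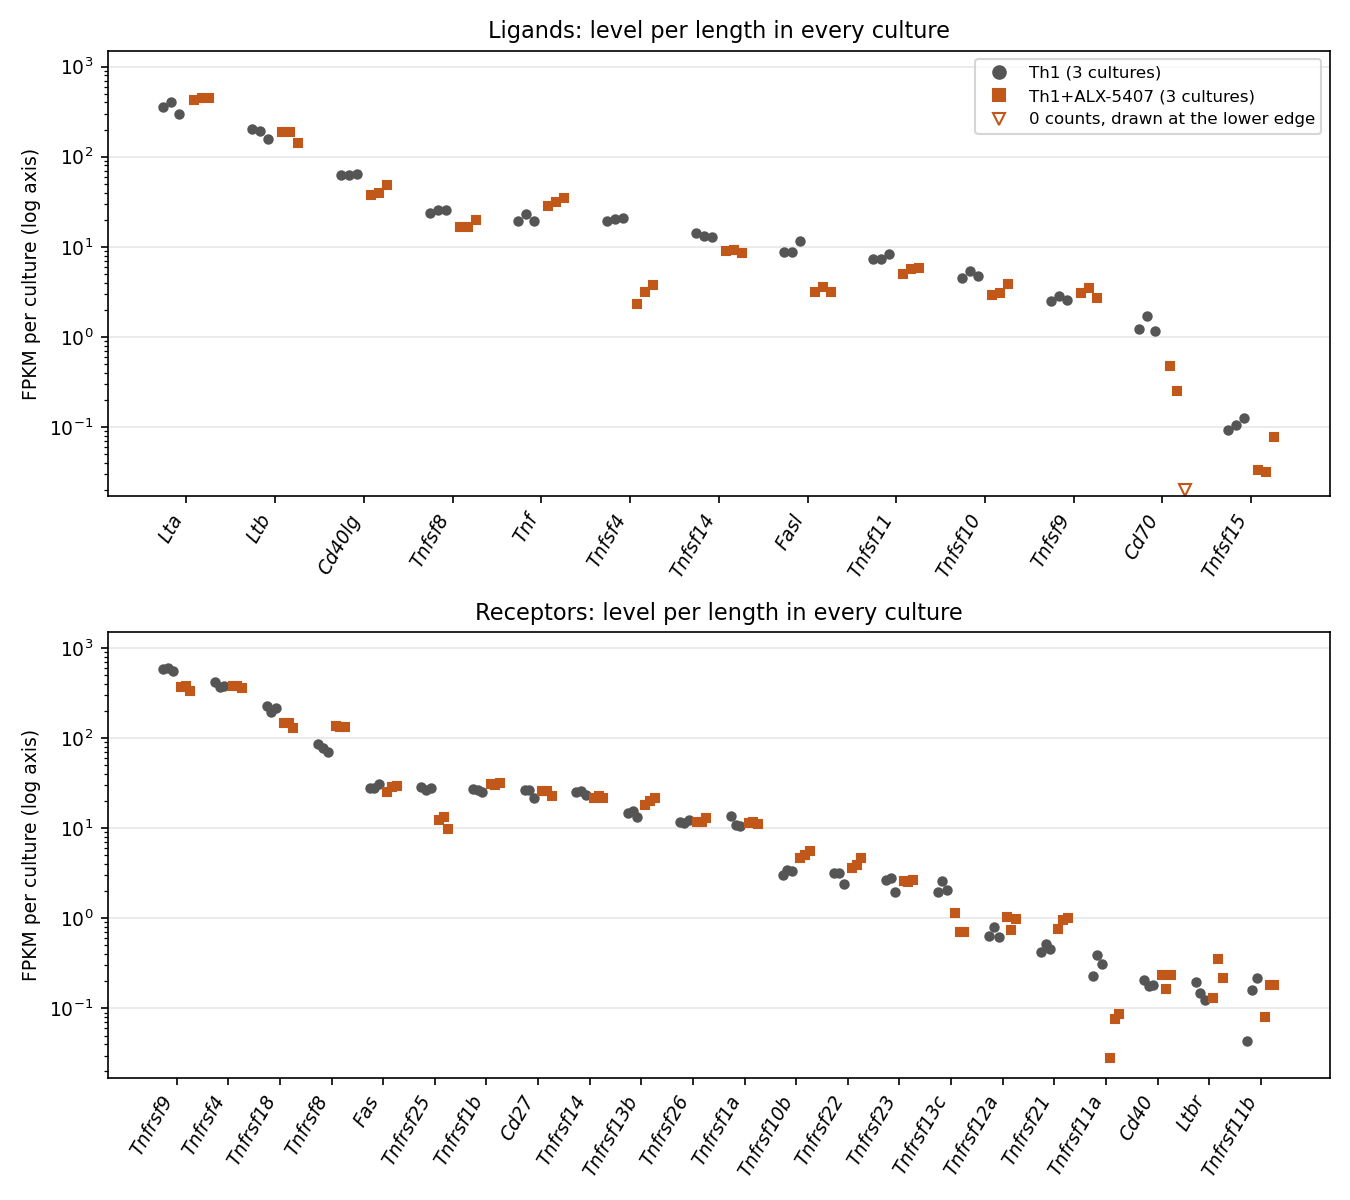
FPKM of the ligands and of the receptors (log axes) in each culture, ordered by the Th1 mean, with Th1 and Th1+ALX-5407 marked separately. Lta and Tnfrsf9 head the orders at 354 and 583 FPKM in the Th1 group, and Tnfsf4 drops from 20.0 to 3.07 FPKM with ALX-5407.

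Ligands were then set beside their receptors. Of 24 known pairs, 17 had both genes tested. In 7 of them the ligand fell and the receptor was not called, in 2 the ligand fell and the receptor rose, and in 1, Tnfsf11 with Tnfrsf11a, both fell. In 2 pairs both rose (Tnf and Lta, each with Tnfrsf1b), in 2 only the ligand rose (the same ligands with Tnfrsf1a), in 2 only the receptor fell (Tnfsf9 with Tnfrsf9, Tnfsf15 with Tnfrsf25), and in 1, Ltb with Ltbr, neither was called. Of all tested ligands 8 of 13 fell, and of all tested receptors 11 of 22 were not called. The receptors Cd40, Ltbr and Tnfrsf11b had at most 28, 31 and 19 reads, so the lack of a call there says little. Pairs share genes, so these counts are not independent. A call in 1 gene and none in its partner does not itself test the difference between them.

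The ratio of receptor to ligand FPKM was computed in each culture for pairs with a mean of 100 counts or more in both genes. With 3 cultures against 3 the exact permutation test cannot give a 2-sided p under 0.1, so the ratios are given with their spread. OX40 transcripts stood to those of OX40 ligand in a ratio of 19.5 ± 2.15 (SD, n = 3) in the Th1 group and 127 ± 35.7 (SD, n = 3) with ALX-5407. The ratio of Fas to Fasl was 3.02 ± 0.268 (SD, n = 3) and 8.43 ± 0.821 (SD, n = 3), with the limit on the Fas length given above. In both pairs the treated cultures were all higher, and the receptor's own level was not called. These ratios therefore largely restate the fall of the ligand in the same cultures and are not separate evidence.

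For CD30 and for the TRAIL receptor both partners moved. The ratio of Tnfrsf8 to Tnfsf8 was 3.13 ± 0.429 (SD, n = 3) in the Th1 group and 7.65 ± 0.899 (SD, n = 3) with ALX-5407. That of Tnfrsf10b to Tnfsf10 was 0.669 ± 0.0403 (SD, n = 3) and 1.57 ± 0.0982 (SD, n = 3), so the ligand transcript was the more abundant in the Th1 cultures and the receptor transcript in the treated ones. Tnfrsf14 to Tnfsf14 was 1.85 and 2.48.

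The ratio was lower with ALX-5407 where the receptor fell or the ligand rose. Tnfrsf9 to Tnfsf9 was 222 ± 11.6 (SD, n = 3) and 117 ± 8.06 (SD, n = 3), with the limit on Tnfsf9 reads given above. Tnfrsf1a to Tnf was 0.576 ± 0.117 (SD, n = 3) and 0.366 ± 0.0455 (SD, n = 3), and Tnfrsf1b to Tnf 1.29 and 0.989. For Lta the ratio of Tnfrsf1a was 0.0336 and 0.0259, and that of Tnfrsf1b, 0.0754 and 0.0701, overlapped between the groups.

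**Figure D4:**
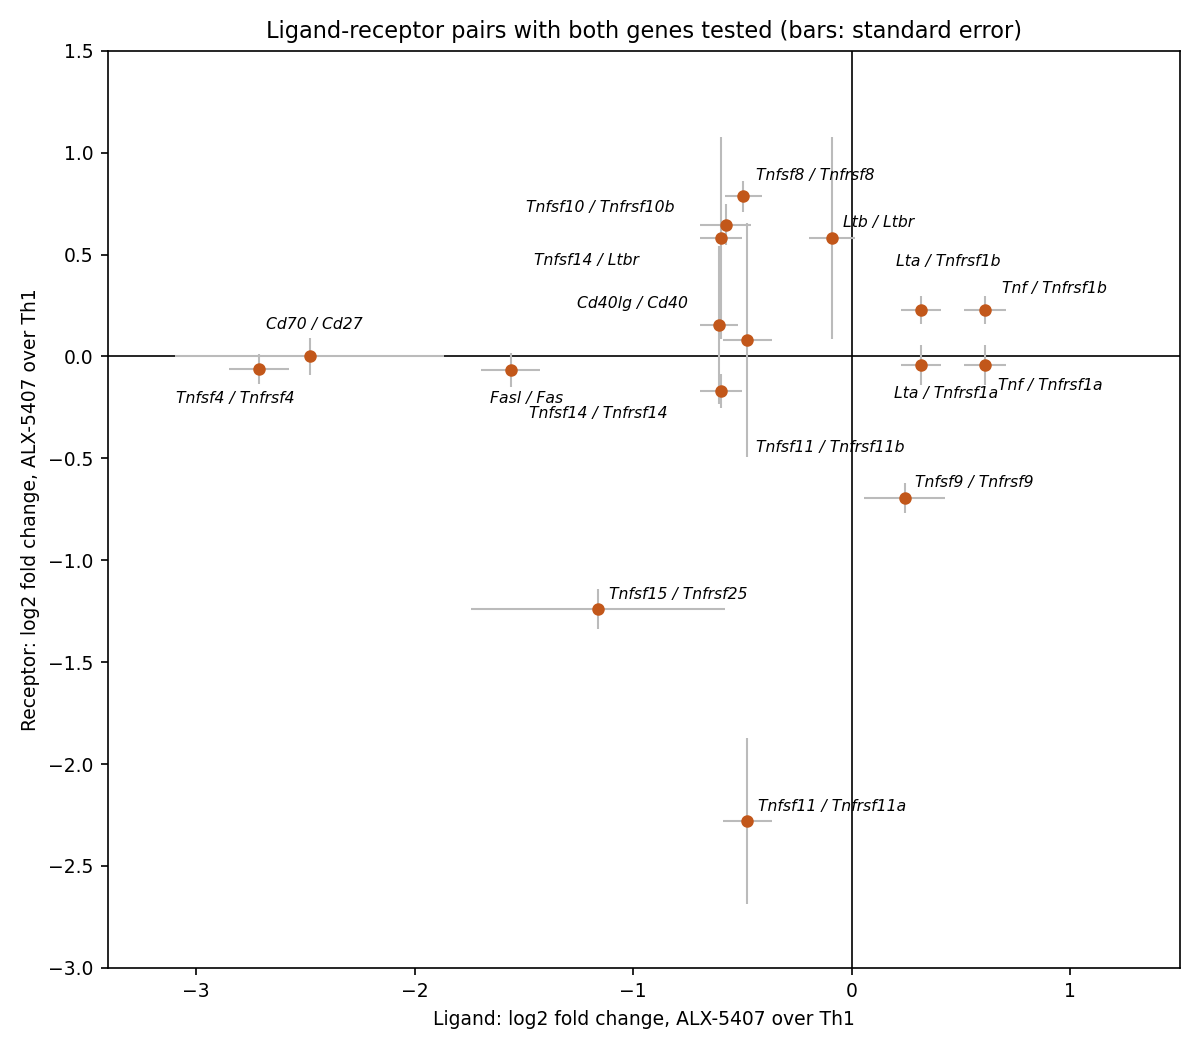
Each point is a ligand-receptor pair with both genes tested, at the ligand's (x axis) and the receptor's (y axis) log2 fold change, ALX-5407 over Th1, with standard error bars. Tnfsf4, Cd70 and Fasl lie far left at a receptor change between −0.07 and 0.00, and Tnfsf11 with Tnfrsf11a lies lowest, at −0.48 and −2.28.

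The remaining 7 pairs lacked a tested ligand, and 8 members in all were too low to test. Tnfsf13b, which encodes BAFF, had at most 16 reads, Tnfsf12 (TWEAK) 8, Tnfsf13 (APRIL) 6, Tnfrsf19 4 and Tnfsf13os 2. Ngfr, the low-affinity neurotrophin receptor, had 2, 2 and 2 reads against 8, 7 and 4. Tnfsf18, the GITR ligand, and Tnfrsf17, the plasma cell receptor BCMA, had 0 reads in every library, which allows up to 3 reads or 0.0817 to 0.0974 CPM. BAFF, APRIL, TWEAK and the GITR ligand were therefore not measurable at this depth beside receptors that were.

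The family lies partly in gene clusters. With members under 500 kb apart joined, 23 members fell into 9 clusters, of which 4 held more than 1 called member. In each of these 4 the called members moved in the same direction. How often neighbouring called genes share a direction over all genes was not computed. Whether clustered members moved together more than other neighbours was therefore not tested. On chromosome 1, between 161395409 and 161788495, Tnfsf4 and Fasl fell and Tnfsf18 was at 0. The nearest tested genes outside this cluster, Prdx6 (log2 fold change −0.73) and Suco (−0.55), fell as well, while Gm15429, between Tnfsf4 and Fasl, was not called (0.65, adjusted p = 0.206). On chromosome 17 the neighbours Tnf and Lta rose and Ltb was not called, and in a separate cluster Cd70 and Tnfsf14 fell and Tnfsf9 was not called. On chromosome 4, between 145213463 and 145315164, Tnfrsf1b and Tnfrsf8 rose. Tnfrsf25, elsewhere on chromosome 4, lies 0.212 kb from Espn, which fell (−0.45, adjusted p = 0.00148), and 0.534 kb from Plekhg5, which was not called (0.28).

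The genes that carry the receptors' signal moved in both directions. Of 30 adaptors and regulators, 13 rose, 8 fell and 9 were not called, with a median log2 fold change of 0.17. That is 43.3% higher and 26.7% lower, beside 24.5% and 23.2% of all genes tested. Among those that fell were Tnip2, an inhibitor of NF-κB signalling (−1.23, adjusted p = 6.95e-09), Birc2, the ubiquitin ligase cIAP1 (−1.19, adjusted p = 8.06e-09), Tnfaip3, the deubiquitinase A20 (−0.72), and Traf1 (−0.36). Among those that rose were the death-domain adaptors Fadd (0.89) and Tradd (0.52), the protease Casp8 (0.46), the kinases Ripk3 (0.30) and Map3k5 (0.78), and Rbck1 of the linear ubiquitin ligase (0.27). Not called were Traf2 (0.08, adjusted p = 0.469), Cflar, an inhibitor of caspase-8 (0.15, adjusted p = 0.0929), and Mlkl, which acts after Ripk3 (−0.13, adjusted p = 0.334).

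Of 14 NF-κB subunits, inhibitors and kinases, 3 rose, 6 fell and 5 were not called, or 21.4% higher and 42.9% lower beside 24.5% and 23.2% of all genes tested. Nfkbid, a nuclear IκB protein, was the only gene of these lists higher by more than 1 (log2 fold change 1.39, adjusted p = 8.31e-08). The cytoplasmic inhibitors Nfkbib (−0.86) and Nfkbia (−0.61) fell, as did Ikbkb (−0.31), Rel (−0.22) and Relb (−0.22), whereas Chuk (0.29) and Bcl3 (0.34) rose and Nfkb1 was not called (0.00, adjusted p = 0.979). Of 5 genes for the release or processing of ligands, 3 rose, Rhbdf2 (0.79), Furin (0.66) and Adam10 (0.57), and 0 fell. Of all genes tested 24.5% rose and 23.2% fell, and a list of 5 genes allows only a coarse comparison. Adam17, the protease that releases TNF, was not called (0.06, adjusted p = 0.522). Of 5 family genes whose names the rule did not take, 3 were tested and only the receptor Relt rose (0.30, adjusted p = 0.0264). This is 33.3% of those tested, beside 24.5% of all genes.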

How the data were processed

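RNA sequencing counts of 6 libraries (3 Th1, 3 Th1+ALX-5407, grouped by their labels) were used. The authors deposited raw counts per gene, whole numbers with no normalization, beside gene names, GRCm38 coordinates and a gene length in bases. Per the labels' processing notes, reads were trimmed with fastp, aligned to mm10 with HISAT2 2.0.5 and counted with featureCounts 1.5.0-p3. The strand setting and annotation release are not given in the sources used here, and the labels describe poly(T) capture where the methods describe rRNA depletion. Reads shared by near-identical genes or by overlapping genes may therefore be split or lost.

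The counts were fitted with edgeR 4.0.16 in R 4.3.3 (filterByExpr with a minimum count of 10 and a total of 15, TMM, quasi-likelihood test, Benjamini-Hochberg adjustment over 15938 genes), without a replicate term. Calls needed an adjusted p under 0.05, and the fold criterion an absolute log2 fold change over 1. CPM and FPKM used TMM-scaled library sizes. No correction was made over the members alone. Standard errors were derived from the fit, as the absolute log2 fold change divided by the square root of the F statistic of the quasi-likelihood test. DESeq2 1.42.0, other scalings and filters, and leaving out each library were alternatives. The procedure was tested on simulated data. Near-identical copies were sought with BLAST 2.17.0 at 95% identity over 100 bases or more. Depth, 30801753 to 36727788 counts, leaves wide errors for members under 50 reads, and limits from 0 counts cover counting error only.

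Members and gene lists were chosen with earlier results of these data known. Every tested member is named, those past both criteria and those of pairs with both genes tested with values in every library, and of other pathway lists up to 10 genes by smallest p, with Traf2, Cflar, Mlkl, Nfkb1 and Relt named after their values were seen.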

Additional observations from a re-analysis of the deposited data

How the results depend on the processing

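With no fold criterion, 21 members (10 ligands and 11 receptors) passed, against 6 (3 and 3) with it. The number past both criteria was 6 under RLE scaling, in DESeq2, with no filter on low counts and with the replicate block, 4 when genes with a mean under 50 counts were filtered out, and 6 to 7 when each library was left out. Same-numbered libraries did not deviate together (r from −0.0084 to 0.0635), but with 3 cultures per group this cannot show whether the replicate numbers mark pairs. The fit with the replicate block gave 6 members, and over all genes it called 7904 against 7605 without the block. Among members that were not called, the sign turned for Cd27 under RLE scaling (−0.01), DESeq2 (−0.01) and that stricter filter (−0.03). Leaving out each library also turned it, over ranges of −0.11 to 0.07 for Cd27, −0.21 to 0.03 for Ltb, −0.11 to 0.01 for Fas, −0.36 to 0.54 for Tnfrsf11b, −0.12 to 0.07 for Tnfrsf1a, −0.1 to 0.14 for Tnfrsf23 and −0.01 to 0.06 for Tnfrsf26. The cause was not tested. The ligand median stayed between −0.61 and −0.49 and the receptor median between 0.01 and 0.07 when libraries were left out. The receptor median was −0.01 under the stricter filter.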
